A study of Mus musculus with 18 samples.

Results

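Cyp2c cytochromes P450 in liver are described here as 9 genes chosen by name: Cyp2c29, Cyp2c37, Cyp2c38, Cyp2c39, Cyp2c40, Cyp2c50, Cyp2c54, Cyp2c55 and Cyp2c70. All 9 were found by symbol among the 23474 genes of the deposited table. The table's identifiers are ENSMUSG00000003053 for Cyp2c29, ENSMUSG00000042248 for Cyp2c37, ENSMUSG00000032808 for Cyp2c38, ENSMUSG00000025003 for Cyp2c39, ENSMUSG00000025004 for Cyp2c40, ENSMUSG00000054827 for Cyp2c50, ENSMUSG00000067225 for Cyp2c54, ENSMUSG00000025002 for Cyp2c55 and ENSMUSG00000060613 for Cyp2c70. Polyadenylated RNA was sequenced from liver of male C57BL/6J mice, an inbred strain, aged 17 weeks. From 5 weeks of age the mice had been fed for 12 weeks. The GT group received the high-fat diet with 0.25% by weight of an ethanol extract of green tea, the HFD group the high-fat diet alone, and the ND group a normal diet. Each diet had 10 mice and gave 3 liver libraries, and the same 3 diets gave 9 libraries of epididymal fat. The labels do not say whether each library is 1 mouse, so the p-values reflect variation among libraries, some of which may be technical.

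Cytochromes P450 of the Cyp2c subfamily sit in the membrane of the endoplasmic reticulum and take electrons from the reductase Por. In mouse liver they oxidize drugs and steroids, and several of them turn arachidonic acid into epoxides, which act as lipid mediators, or into hydroxy acids. The nuclear receptors Nr1i3 (CAR) and Nr1i2 (PXR) are known to switch on several of these genes after exposure to foreign compounds. Cyp2c70 has another role in mice, since it makes the rodent muricholic bile acids.

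The 9 genes lie on chromosome 19, where the reference annotation (GENCODE M21) places them in the order Cyp2c55, Cyp2c29, Cyp2c38, Cyp2c39, Cyp2c40, Cyp2c37, Cyp2c54, Cyp2c50 and Cyp2c70, with other Cyp2c genes and pseudogenes between some of them. No label names the genome build behind the deposited values, which was not given in the sources used here. How far reads can be assigned among such copies depends on their sequences. Of all 50-base windows of the Cyp2c40 transcript, 72.1% also occurred in a transcript of another gene, chiefly Cyp2c69, Cyp2c67 and Cyp2c68. The share was 30.7% for Cyp2c50, 30.1% for Cyp2c37 and 25.7% for Cyp2c54, which share windows mostly with each other. It was 12% for Cyp2c39 and 7.45% for Cyp2c38, which pair with each other, 2.08% for Cyp2c29, 1.13% for Cyp2c55 and 0% for Cyp2c70. Values of Cyp2c40 are therefore uncertain, values of Cyp2c37, Cyp2c50 and Cyp2c54 partly so, and the value of Cyp2c70 rests on unshared sequence.

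**Figure D1:**
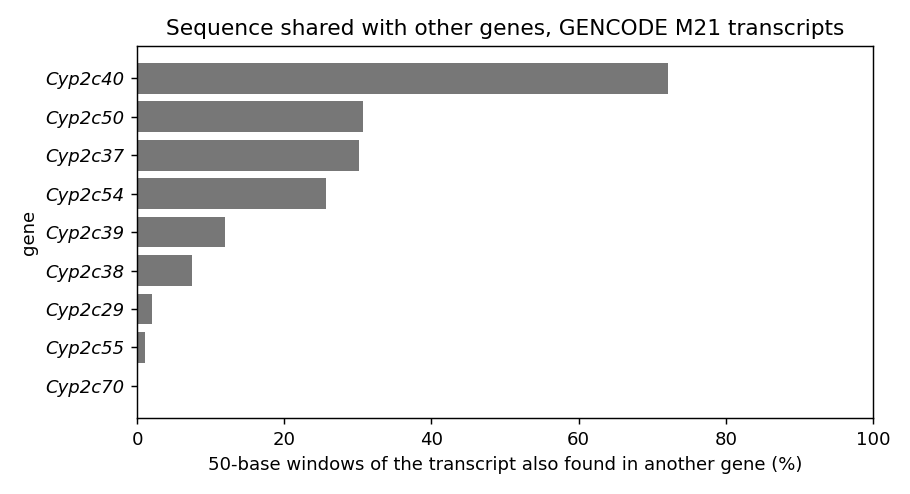
Horizontal bars give, for each of the 9 genes, the percentage of 50-base windows of its transcript that also occur in a transcript of any other gene. Cyp2c40 stands at 72.1%, Cyp2c37, Cyp2c50 and Cyp2c54 lie between 25.7% and 30.7%, and Cyp2c70 is at 0%.

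The coding sequences of Cyp2c54 and Cyp2c50 were 95.24% identical and those of Cyp2c37 and Cyp2c50 96.12%. Over their 1470 coding bases, 98 positions differed among the 3 genes. The stretch of 60 bases richest in such positions, coding bases 791 to 850 counted from the start codon, is shown because it is where reads separate these genes best. Capitals mark the 13 positions that differ among them.
Cyp2c54: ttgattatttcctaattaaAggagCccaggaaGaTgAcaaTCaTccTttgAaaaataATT
Cyp2c50: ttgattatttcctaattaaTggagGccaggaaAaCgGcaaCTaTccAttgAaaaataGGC
Cyp2c37: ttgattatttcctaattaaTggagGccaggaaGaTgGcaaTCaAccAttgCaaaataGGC
Cyp2c54 differed from Cyp2c50 at 11 of these bases and from Cyp2c37 at 9, while Cyp2c50 and Cyp2c37 differed at 6.

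Upstream sequence was listed for 8 of the 9 genes in the RefSeq table (GRCm38.p6), the exception being Cyp2c54. The windows of the neighbours Cyp2c38, Cyp2c39 and Cyp2c29 are shown because Cyp2c38 takes a different share among these 3 relatives in each diet, as described below. Each runs from 250 bases before the annotated start to 50 bases after it, and Cyp2c39 has a second listed start that is not shown. Capitals mark matches, on either strand, to TATAAA (a core promoter motif) or to AGGTCA (the half-site of nuclear receptors). The motifs do not overlap each other.
Cyp2c38, chr19:39463026-39463325, minus strand: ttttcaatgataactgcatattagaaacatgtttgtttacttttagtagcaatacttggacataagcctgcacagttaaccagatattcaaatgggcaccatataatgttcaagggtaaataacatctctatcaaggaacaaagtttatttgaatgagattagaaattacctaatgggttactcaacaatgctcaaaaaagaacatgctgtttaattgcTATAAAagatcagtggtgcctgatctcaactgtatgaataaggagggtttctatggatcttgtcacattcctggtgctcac
Cyp2c39, chr19:39510572-39510871, plus strand: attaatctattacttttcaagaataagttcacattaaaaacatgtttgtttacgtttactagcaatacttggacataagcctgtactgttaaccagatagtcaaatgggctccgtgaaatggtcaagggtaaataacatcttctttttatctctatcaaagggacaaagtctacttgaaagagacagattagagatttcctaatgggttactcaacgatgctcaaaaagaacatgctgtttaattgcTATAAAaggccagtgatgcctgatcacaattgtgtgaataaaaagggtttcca
Cyp2c29, chr19:39286835-39287134, plus strand: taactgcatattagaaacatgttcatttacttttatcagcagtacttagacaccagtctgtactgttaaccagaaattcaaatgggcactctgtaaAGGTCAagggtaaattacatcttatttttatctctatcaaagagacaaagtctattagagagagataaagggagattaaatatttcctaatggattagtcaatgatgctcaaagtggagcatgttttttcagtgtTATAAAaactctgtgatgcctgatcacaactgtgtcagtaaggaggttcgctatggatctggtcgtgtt
The Cyp2c38 window was 79.67% identical to that of Cyp2c39 and 74.67% identical to that of Cyp2c29. Each window held TATAAA, 31, 3 and 19 bases before the listed start of Cyp2c38, Cyp2c39 and Cyp2c29. AGGTCA was found in the Cyp2c29 window, 154 bases before the start, and in neither of the other windows shown. The window at the second listed start of Cyp2c39 held AGGTCA 25 bases before that start and no TATAAA. Of 32851 windows of this length in the table, 13.6% held TATAAA and 16.3% AGGTCA. These matches describe the letters of the windows.

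Deposited levels are FPKM, fragments per kilobase of transcript scaled to the mapped fragments of the library, so that levels can be compared between genes. FPKM totals of the liver libraries ran from 680168 to 930139, and read numbers were not analysed here. The liver label was checked with 7 hepatocyte markers: all 7 reached 1 FPKM in 8 libraries, while HFD 3 had 6, with albumin (Alb) listed at 0. The abundant mitochondrial gene mt-Co1 was listed at 0 in HFD 3 and GT 3, so a 0 can be a failed estimate. All 9 Cyp2c genes were listed above 0 in every liver library. Skeletal muscle markers (8 genes) summed to 108.6 FPKM in HFD 2, 47.6 in GT 3 and 22.7 in HFD 3, with 7 of 8 at 1 FPKM or more in each, and to at most 3.44 in the other liver libraries. Cholangiocyte markers (5 genes, 2 at most reaching 1 FPKM in a library) summed to 51.6 to 112.6 FPKM in HFD libraries and 32.4 to 44.1 in ND libraries. Adipocyte markers (6 genes, 2 at most reaching 1 FPKM) summed to 75.3 to 116.4 in HFD and 28.8 to 55.1 in ND, with adiponectin (Adipoq) at 0 in HFD 2 and at most 1.40 in HFD. Endothelial markers (5 genes) summed to 8.01 to 14.8 in HFD and 17.1 to 21.9 in ND. The part of these contents in the results below was not tested. In bulk tissue, fewer hepatocytes and less RNA per hepatocyte cannot be told apart.

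The 9 genes spanned a wide range of levels in liver. On the normal diet Cyp2c50 stood at 346.1 ± 18.98 FPKM and Cyp2c29 at 309 ± 71.2 (mean ± SD, n = 3 libraries), and these neighbours in the order overlapped. Cyp2c54 at 179 ± 15.7 and Cyp2c37 at 173 ± 28.8 followed and overlapped each other, below every ND value of Cyp2c29. Cyp2c70 came next at 59.6 ± 7.64, then Cyp2c38 at 21.6 ± 6.77, Cyp2c40 at 4.06 ± 1.36, Cyp2c39 at 1.93 ± 0.702 and Cyp2c55 at 0.5302 ± 0.1001, and among these only Cyp2c40 and Cyp2c39 overlapped. The 4 most abundant genes made up 90.8% to 92.5% of the summed FPKM of all 9 in GT libraries, 83.3% to 90.4% in HFD libraries and 91.3% to 93.1% in ND libraries. The order changed in HFD livers, where Cyp2c38 lay above Cyp2c70 in 3 of 3 libraries, while Cyp2c70 lay above Cyp2c38 in 3 of 3 GT and 3 of 3 ND libraries. Every value of Cyp2c54 lay below every value of Cyp2c37 in HFD libraries, while the 2 genes overlapped in GT and in ND libraries.

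**Figure D2:**
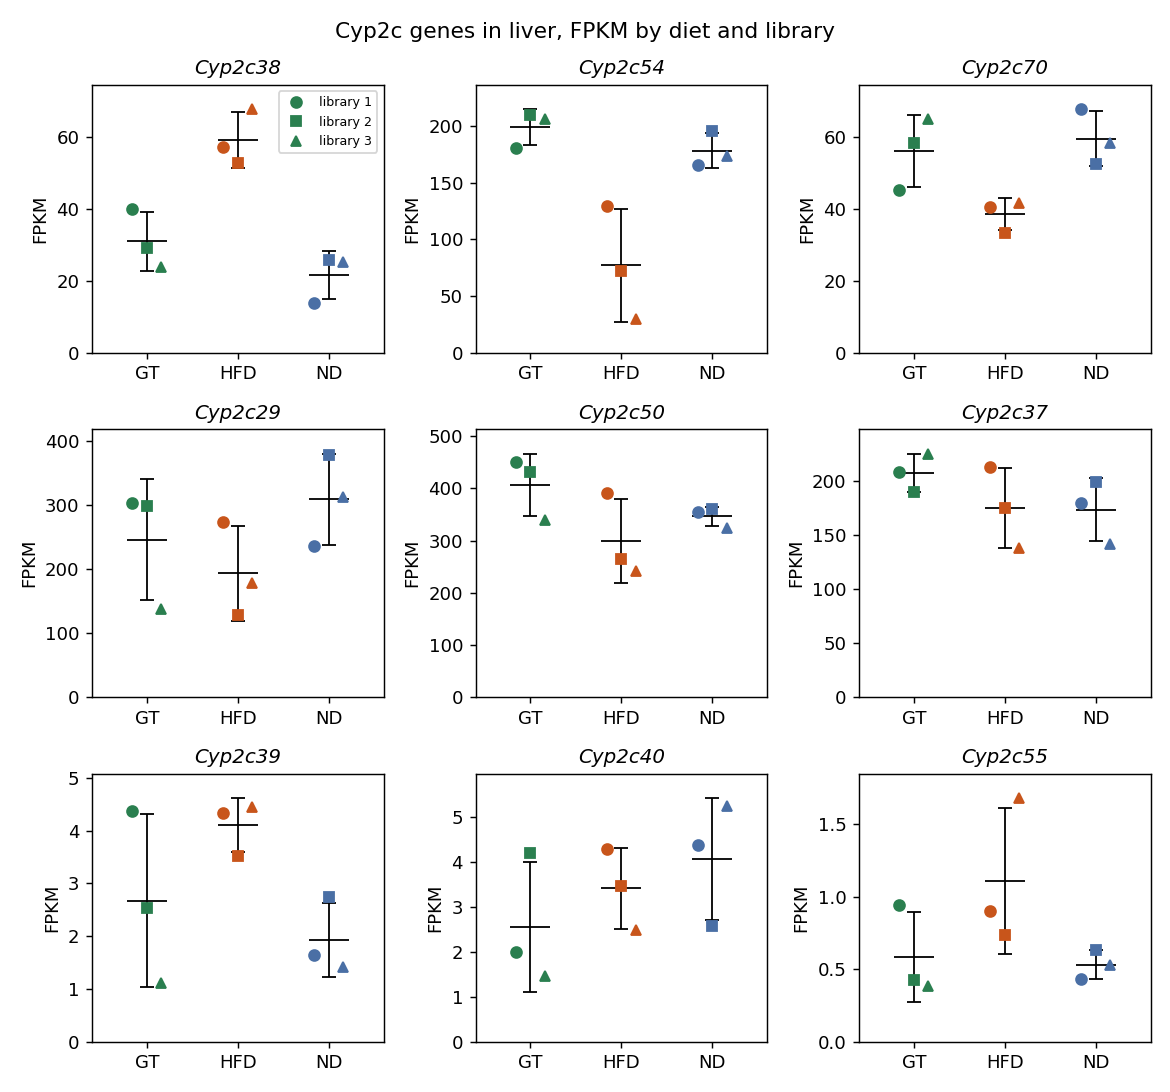
Each panel plots FPKM in liver (linear axis from 0) for 1 Cyp2c gene in GT, HFD and ND, with a symbol for each of 3 libraries, a bar for the mean and whiskers for the SD. Cyp2c38 is highest in HFD (52.6 to 67.7 FPKM), and Cyp2c54 (29.8 to 129.6) and Cyp2c70 (33.4 to 41.6) are lowest there.

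In livers of mice on the high-fat diet, Cyp2c38 was higher and Cyp2c54 and Cyp2c70 were lower than on the normal diet. The comparison asks what the fat-rich diet does to the liver. Of the 8 genes that entered the test, 1 rose and 2 fell, where 18.6% of all 10670 genes tested passed, 11.9% up and 6.67% down. With FPKM rescaled to equal totals, which moved the median change of all genes by -0.18, the share of calls that were higher in HFD was 41.6% instead of 64.0%. Libraries of the 2 diets did not overlap for 4 of the 8 genes, 2 higher and 2 lower in HFD, where 44.9% of all genes did not overlap, 23.6% higher and 21.3% lower. Cyp2c55 was under the filter, which asked for 1 FPKM in at least 3 of the 9 liver libraries. The median change of the 8 genes was -0.21 on the log2(FPKM + 1) scale, against -0.02 over all genes tested. Tests are limma's on log2(FPKM + 1), with adjusted p from Benjamini-Hochberg over all genes, and the added 1 understates changes of genes at low FPKM.

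Cyp2c38, an epoxygenase of arachidonic acid, had 57.2, 52.6 and 67.7 FPKM in HFD livers, against 13.8, 25.9 and 25.1 in ND livers. Every HFD library lay above every ND library. The change was 1.46 ± 0.25 (log2 ± SE, limma adjusted p = 0.00579), and the HFD mean was 2.74 times the ND mean. With any 1 of the 9 libraries left out, the change stayed between 1.18 and 1.61 and passed. With all 3 libraries that held muscle transcripts left out, HFD was 1 library, the change was 1.42 and it did not pass (limma adjusted p = 0.0648). The close relative Cyp2c39, also an epoxygenase, had 4.34, 3.52 and 4.46 FPKM in HFD and 1.65, 2.73 and 1.42 in ND, again without overlap. Its change of 0.82 ± 0.29 did not pass (limma adjusted p = 0.072), but did so in 4 alternatives, among them the fit of the 2 diets alone (limma adjusted p = 0.0107).

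Cyp2c54, which forms epoxides and hydroxy acids of arachidonic acid, had 129.6, 72.3 and 29.8 FPKM in HFD livers, against 165.6, 196.0 and 173.9 in ND livers. All HFD values lay below all ND values, and they were far apart among themselves. The change was -1.43 ± 0.39 (limma adjusted p = 0.0294), a mean 0.433 times that of ND. Its size rested on HFD 3, the library without an albumin value: it was -0.87 without HFD 3 (limma adjusted p = 0.0436) and -0.46 without the 3 libraries that held muscle transcripts (limma adjusted p = 0.158). The call was lost in 9 of 19 alternatives. Among them were the fit of the 2 diets alone (limma adjusted p = 0.0862) and the fit without HFD 2 and GT 3 (limma adjusted p = 0.125). With 1 library left out, the call was lost without HFD 2, ND 1, ND 2, ND 3 or GT 3, with limma adjusted p between 0.0503 and 0.0943.

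Cyp2c70, the muricholic acid enzyme, had 40.5, 33.4 and 41.6 FPKM in HFD livers, against 67.7, 52.6 and 58.4 in ND livers. The groups did not overlap. The change was -0.61 ± 0.18 (limma adjusted p = 0.0367), and the HFD mean was 0.647 times the ND mean. The change kept a similar size, from -0.70 to -0.52, with any 1 library left out, but it did not pass without HFD 1, HFD 2, HFD 3, ND 1 or ND 3, with adjusted p between 0.0594 and 0.154. Without the 3 libraries that held muscle transcripts it was -0.54 (limma adjusted p = 0.154).

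The other tested genes did not pass between HFD and ND. Cyp2c29, an abundant epoxygenase known to be induced through Nr1i3, had 273.7, 128.4 and 178.1 FPKM in HFD and 235.8, 378.0 and 313.4 in ND, and the groups overlapped. Its change was -0.72 (95% interval -1.47 to 0.04, limma adjusted p = 0.161). Its 3 lowest libraries of all 9, HFD 2 at 128.4, GT 3 at 137.1 and HFD 3 at 178.1, were the 3 with muscle transcripts. The change of Cyp2c29 was -0.46 without HFD 2 (limma adjusted p = 0.487) and -0.15 without all 3, which leaves 1 HFD library. The part of muscle transcripts in these values was not tested. Cyp2c50, which forms epoxides and hydroxy acids, had 391.8, 264.9 and 241.3 in HFD and 354.0, 359.9 and 324.5 in ND, a change of -0.24 (interval -0.68 to 0.20, limma adjusted p = 0.42). Cyp2c37, an arachidonic acid hydroxylase, had 212.1, 174.5 and 137.9 in HFD and 179.4, 198.3 and 141.7 in ND, a change of 0.01 (interval -0.42 to 0.43, limma adjusted p = 0.987), whose sign turned in 6 of 19 alternatives. Cyp2c40, also an arachidonic acid hydroxylase, had 4.28, 3.46 and 2.49 in HFD and 4.37, 2.57 and 5.23 in ND (interval -0.81 to 0.46, limma adjusted p = 0.692). Cyp2c55, known for its level in the large intestine, was outside the test and had 0.900, 0.738 and 1.68 in HFD and 0.430, 0.630 and 0.531 in ND, without overlap.

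**Figure D3:**
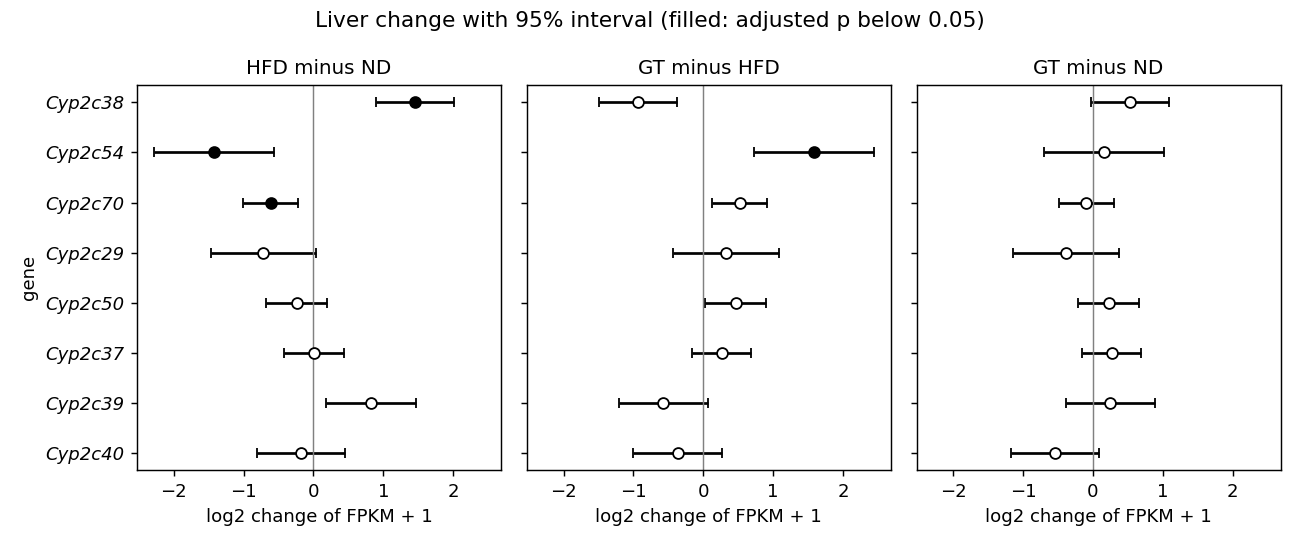
Points give the log2 change of FPKM + 1 for the 8 tested genes in the 3 comparisons, with 95% intervals from limma, and filled points have an adjusted p below 0.05. Filled points are Cyp2c38 (1.46), Cyp2c54 (-1.43) and Cyp2c70 (-0.61) for HFD minus ND and Cyp2c54 (1.59) for GT minus HFD.

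With green tea extract in the high-fat diet, Cyp2c54 was higher than on the high-fat diet alone. This comparison addresses what the extract changes in mice on the high-fat diet. Of the 8 tested genes 1 rose and 0 fell by limma, where 5.36% of all genes passed, 1.14% up and 4.22% down. Of the calls over all genes, 21.3% were higher in GT, against 32.7% with equal totals and 35.5% with quantile scaling. The median change of the 8 was 0.29, against -0.04 over all genes. Marker sums also differed without overlap: Kupffer cell and macrophage markers (6 genes, 3 to 6 reaching 1 FPKM in a library) summed to 25.7 to 42.6 FPKM in GT and 47.3 to 65.4 in HFD, cholangiocyte markers to 17.6 to 29.6 in GT and 51.6 to 112.6 in HFD, and stellate cell markers (5 genes, 2 to 4 reaching 1 FPKM) to 45.5 to 70.1 in GT and 88.0 to 131.0 in HFD. Their part in the result was not tested.

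Cyp2c54 had 181.2, 210.2 and 206.5 FPKM in GT livers, against 129.6, 72.3 and 29.8 in HFD livers. All GT values lay above all HFD values. The change was 1.59 ± 0.39 (limma adjusted p = 0.0447), and the GT mean was 2.58 times the HFD mean. This call was close to the threshold: it was lost in 14 of 19 alternatives, and the change was 1.03 without HFD 3 (limma adjusted p = 0.0722). Without HFD 2, HFD 3 and GT 3, which leaves 1 HFD library, the change was 0.59.

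The 2 other genes that differed between HFD and ND had GT values on the side of ND, without passing. Cyp2c38 had 40.0, 29.1 and 24.0 FPKM in GT and 57.2, 52.6 and 67.7 in HFD, all GT values being below all HFD values. Its change was -0.93 ± 0.25 (interval -1.49 to -0.38, limma adjusted p = 0.0581). Cyp2c70 had 45.1, 58.3 and 64.9 in GT and 40.5, 33.4 and 41.6 in HFD, again without overlap, with a change of 0.52 ± 0.18 (interval 0.13 to 0.91, limma adjusted p = 0.11). Libraries of GT and HFD did not overlap for 3 of the 8 tested genes, 2 higher and 1 lower in GT, where 26.8% of all genes did not overlap, 8.59% higher and 18.2% lower. Cyp2c50 had 450.6, 430.5 and 338.8 in GT and 391.8, 264.9 and 241.3 in HFD (0.46, limma adjusted p = 0.193). Cyp2c29 had 302.6, 298.0 and 137.1 in GT, which overlapped the HFD values (0.33, limma adjusted p = 0.613). Cyp2c37 had 207.8, 189.5 and 224.4 in GT (0.26, limma adjusted p = 0.449), Cyp2c39 had 4.38, 2.53 and 1.12 (-0.57, limma adjusted p = 0.267) and Cyp2c40 had 2.003, 4.189 and 1.467 (-0.37, limma adjusted p = 0.48). Cyp2c55 had 0.945, 0.425 and 0.385 in GT. Both comparisons use the same HFD libraries, so their values are set side by side without a test of their relation.

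Between extract and normal diet, 0 of the 8 tested Cyp2c genes passed by limma, where 2.6% of all genes passed, 1.27% up and 1.33% down. Libraries of the 2 diets did not overlap for 0 of the 8 genes, where 21.6% of all genes did not overlap, 8.43% higher and 13.1% lower in GT. Cyp2c54 averaged 199 ± 15.8 FPKM in GT and 179 ± 15.7 in ND (log2 0.16, interval -0.70 to 1.02, limma adjusted p = 0.867). Cyp2c70 averaged 56.1 ± 10.1 in GT and 59.6 ± 7.64 in ND (-0.09, interval -0.49 to 0.30, limma adjusted p = 0.827). Cyp2c38 averaged 31.0 ± 8.19 in GT and 21.6 ± 6.77 in ND (0.52, interval -0.03 to 1.08, limma adjusted p = 0.335). These intervals are wide, and a difference of 1 log2 unit lies within those of Cyp2c54 and Cyp2c38.

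Ratios within a library do not depend on how its FPKM are scaled. Among close relatives, the share of Cyp2c54 was lowest and that of Cyp2c38 highest in HFD libraries. Cyp2c54 made up 21.6%, 25.3% and 26.8% of the summed FPKM of Cyp2c37, Cyp2c50 and Cyp2c54 in GT libraries, 17.7%, 14.1% and 7.29% in HFD libraries, and 23.7%, 26.0% and 27.2% in ND libraries. Every HFD library lay below every GT and ND library. The part of muscle transcripts in these shares was not tested. Cyp2c38 made up 11.5%, 8.83% and 14.8% of the sum of Cyp2c29, Cyp2c38 and Cyp2c39 in GT, 17.1%, 28.5% and 27.1% in HFD, and 5.49%, 6.36% and 7.39% in ND, so no 2 diets overlapped. The ratio of Cyp2c38 to Cyp2c70 was 0.886, 0.500 and 0.369 in GT, 1.41, 1.57 and 1.63 in HFD, and 0.204, 0.492 and 0.430 in ND. The ratio of Cyp2c38 to its nearest relative Cyp2c39 overlapped between all diets, at 9.14, 11.5 and 21.4 in GT, 13.2, 14.9 and 15.2 in HFD, and 8.37, 9.47 and 17.7 in ND. For Cyp2c54 to Cyp2c50, Cyp2c38 to Cyp2c29 and Cyp2c38 to Cyp2c70, HFD against ND and GT against HFD each gave p = 0.1 in a two-sided exact permutation test, the smallest p that 3 against 3 libraries allow, and 0.129 after Benjamini-Hochberg adjustment over 9 tests. GT against ND gave the same exact permutation p = 0.1 (adjusted 0.129) for Cyp2c38 to Cyp2c29, a log2 difference of 0.94, and exact permutation p = 0.8 for Cyp2c54 to Cyp2c50 and 0.4 for Cyp2c38 to Cyp2c70. The top gene of each ratio was already called between HFD and ND in these libraries. The ratios therefore restate those calls and add no separate support. The summed FPKM of all 9 genes was 1235, 1223 and 999 in GT, 1114, 734 and 705 in HFD, and 1023, 1217 and 1044 in ND, so the diets overlapped.

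**Figure D4:**
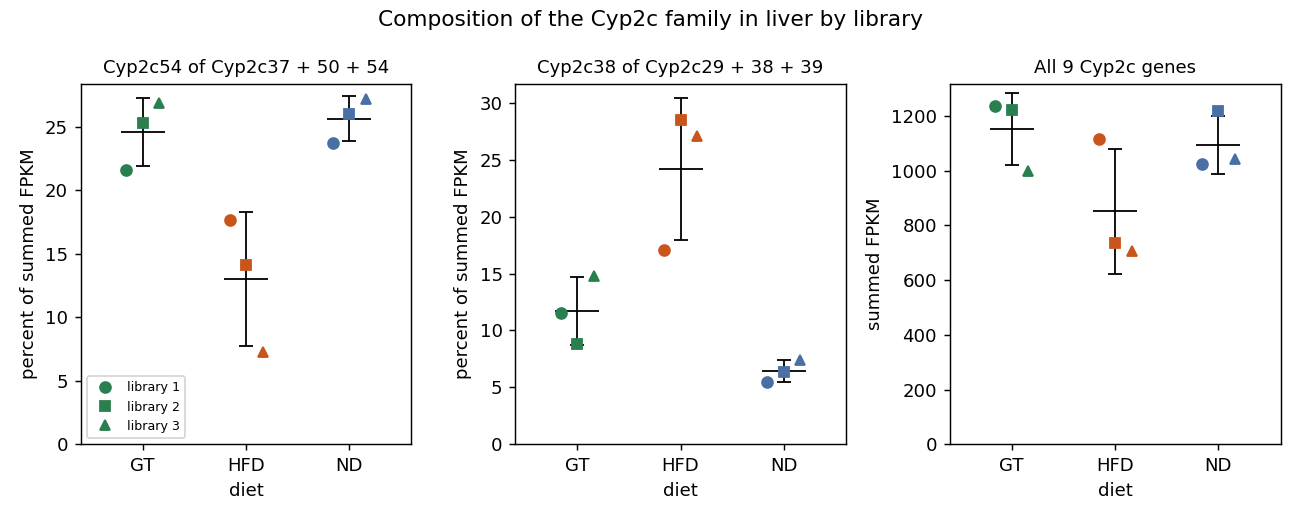
From left to right, panels give the percentage of Cyp2c54 in the summed FPKM of Cyp2c37, Cyp2c50 and Cyp2c54, the percentage of Cyp2c38 in that of Cyp2c29, Cyp2c38 and Cyp2c39, and the summed FPKM of all 9 genes, for 3 liver libraries of each diet with mean and SD. The Cyp2c54 share is 7.29% to 17.7% in HFD and at least 21.6% in GT and ND, and the Cyp2c38 share is 17.1% to 28.5% in HFD and at most 14.8% elsewhere.

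Other Cyp2c genes were read from a list compiled with earlier results of these data known. Of 6 found in the table, 3 were tested, and 2 of them fell and 0 rose between HFD and ND. Over all genes tested, 6.67% fell and 11.9% rose in that comparison. Without HFD 2 and GT 3, 1 of the 3 fell between HFD and ND. With the extract 1 of the 3 rose and 0 fell, where 1.14% of all genes rose and 4.22% fell. Cyp2c23, an epoxygenase, averaged 65.2 ± 12.7 FPKM in HFD and 127 ± 24.4 in ND (-0.96 ± 0.19, limma adjusted p = 0.0104). It also rose with the extract, to 142 ± 19.4 in GT against 65.2 ± 12.7 in HFD (1.12 ± 0.19, limma adjusted p = 0.0145). That rise was lost without HFD 2 and GT 3, where 0 of the 3 tested genes passed by limma between GT and HFD. Cyp2c67, a relative of Cyp2c40, averaged 111 ± 20.7 in HFD and 179 ± 26.3 in ND (-0.69 ± 0.18, limma adjusted p = 0.025). With HFD 2, HFD 3 and GT 3 left out, HFD was 1 library. The change of Cyp2c23 was then -0.66 between HFD and ND and 0.71 between GT and HFD. Cyp2c68 averaged 64.2 ± 2.46 in GT and 92.3 ± 9.91 in HFD without passing (-0.51 ± 0.14, limma adjusted p = 0.0634). The coding sequence of Cyp2c67 was 97.15% identical to that of Cyp2c68 and 97.69% to that of Cyp2c69. Values of these copies are therefore uncertain.

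Lists of genes around the family, also compiled with earlier results known, are given as counts, to be read against the 18.6% of all genes called between HFD and ND (11.9% up, 6.67% down) and the 5.36% called between GT and HFD. Leaving out HFD 2, HFD 3 and GT 3 leaves 1 HFD library, so a call lost there says little about the gene. Of 8 electron partners and haem genes, 3 rose and 1 fell between HFD and ND, with a list median of 0.59, and 0 passed by limma without HFD 2, HFD 3 and GT 3. The reductase Por averaged 126 ± 3.47 FPKM in HFD and 224 ± 46.8 in ND (-0.80 ± 0.21, limma adjusted p = 0.0232), while cytochrome b5 (Cyb5a), another electron donor, rose by 1.06 ± 0.17 (limma adjusted p = 0.00481). The haem oxygenase gene Hmox1 also rose, by 1.04 ± 0.23 (limma adjusted p = 0.0128). With the extract 0 of the 8 rose and 1 fell, Hmox1 at -0.93 ± 0.23 (limma adjusted p = 0.0429). That fall did not pass with equal totals or without HFD 2 and GT 3. Among 10 regulators, 2 rose and 0 fell, a share close to that of all genes, with a median of -0.08. With quantile scaling 0 rose and 1 fell, and without HFD 2, HFD 3 and GT 3 none passed by limma. These were Cebpa, a hepatocyte transcription factor, at 0.55 ± 0.16 (limma adjusted p = 0.0376), and the bile acid receptor Nr1h4 at 0.49 ± 0.16 (limma adjusted p = 0.0493), and neither passed with equal totals or quantile scaling. With the extract 0 of the 10 regulators passed by limma, where 5.36% of all genes passed. Nr1i3 averaged 412 ± 108 FPKM in GT and 275 ± 13.3 in HFD (0.55, limma adjusted p = 0.147). A list of 13 genes around arachidonate epoxides and hydroxy acids, outside the family, also held epoxide hydrolases and a fatty acid binding protein. Of these 13, 7 fell and 1, an epoxide hydrolase, rose on the high-fat diet, with a median of -0.60. Those that fell included another epoxide hydrolase and the omega-hydroxylase genes Cyp4a10 (-1.50 ± 0.20, limma adjusted p = 0.00176) and Cyp4a14 (-1.95 ± 0.37, limma adjusted p = 0.00791). With the extract 2 of the 13 rose and 0 fell, namely Cyp4f14 (1.22 ± 0.23, limma adjusted p = 0.0186) and Cyp4a12b (2.30 ± 0.50, limma adjusted p = 0.0317), which has near-identical copies. Without HFD 2, HFD 3 and GT 3 the high-fat diet gave 3 that fell and 0 that rose, and neither rise with the extract passed without HFD 2 and GT 3 (limma adjusted p = 0.0658 for Cyp4f14 and 0.223 for Cyp4a12b). Of 16 other drug-metabolizing P450 genes 4 rose and 0 fell between HFD and ND, with a median of 0.18, which was -0.03 with equal totals, and 1 fell with the extract. Without HFD 2, HFD 3 and GT 3, 15 were tested and 0 passed by limma between HFD and ND. Without HFD 2 and GT 3 the extract gave 1 that rose and 0 that fell.

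Of 10 bile acid genes around Cyp2c70, 2 rose and 1 fell between HFD and ND, with a median of 0.15, which was -0.07 with equal totals, and 0 passed by limma without HFD 2, HFD 3 and GT 3. The one that fell was Cyp7b1, an oxysterol hydroxylase, which averaged 38.8 ± 22.9 FPKM in HFD and 106 ± 25.0 in ND (-1.55 ± 0.36, limma adjusted p = 0.0157), and -0.67 without HFD 2, HFD 3 and GT 3 (limma adjusted p = 0.218). Over all genes 18.6% passed between HFD and ND and 5.36% between GT and HFD. With the extract 1 of the 10 fell and 0 rose. That was Cyp8b1, the enzyme that makes cholic acid, at 316 ± 63.7 in GT and 531 ± 45.9 in HFD (-0.76 ± 0.17, limma adjusted p = 0.0347), a call lost with equal totals (limma adjusted p = 0.153) and with quantile scaling (limma adjusted p = 0.0707).

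The genes most like Cyp2c38, the member with the smallest p over the 3 diets, were sought by Pearson's r of log2(FPKM + 1) over the 9 liver libraries among 10121 tested genes outside the family. The 5 highest were Slc39a5 (r = 0.971), Eipr1 (0.968), Coq10a (0.960), Ucp2 (0.960) and Cyb5r3 (0.959). These r values describe points that share libraries and 3 diet groups, and no test was made on them. Since the 5 were chosen for likeness to Cyp2c38, their changes between HFD and ND follow from the choice. These ran from 0.61 for Cyb5r3 to 1.61 for the mitochondrial carrier Ucp2.

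In epididymal fat the Cyp2c genes were nearly undetected. Of 72 values of the 8 genes other than Cyp2c70, 55 were listed at 0 and the highest was 0.197 FPKM. Cyp2c70 had 0.432, 0.828 and 1.54 FPKM in GT fat, 0.176, 0.350 and 0.541 in HFD fat, and 0, 0.225 and 0.120 in ND fat.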

How the data were processed

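RNA of 9 liver and 9 epididymal fat libraries, 3 per diet, was prepared with a TruSeq kit, per the labels' protocols. The authors deposited 1 table of FPKM values for 23474 genes. The submitters' processing notes name CASAVA 1.8.2, STAR 2.4.0 and Cufflinks 2.1.1. FPKM carry no read counts, so counting error could not be given, and libraries scaled to different totals can shift changes. How Cufflinks split reads among the Cyp2c copies was not given. Symbols came from GENCODE M21, which named 22671 genes and left 803 unnamed, and 0 columns belonged to no sample.

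Liver genes with at least 1 FPKM in 3 or more of 9 libraries (10670) were tested on log2(FPKM + 1) with limma 3.58.1 in R 4.3.3, with 1 mean per diet, trend and robust options, and Benjamini-Hochberg adjustment over all of them at 0.05. Errors of changes are limma's SE, and intervals cover 95%. Ratios were compared by exact permutation (SciPy 1.17.1). The fit was tested on simulated data. All 9 Cyp2c genes were named. From each related list, up to 4 genes with the smallest p between HFD and ND and up to 3 between GT and HFD could be named, and 5 genes most like the member with the smallest F-test p. The members and lists were chosen with earlier results of these data known. Shared windows used GENCODE M21 transcripts, and promoter windows came from RefSeq.

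Alternatives were an added 0.1, no filter, a filter at 5 FPKM, equal totals, quantile scaling, a replicate block, a plain variance prior, the compared diets alone, and libraries left out. Leaving out HFD 2, HFD 3 and GT 3 together was chosen after seeing the data.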

Additional observations from a re-analysis of the deposited data

Results flagged for a closer look

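Cyp2c70 was listed in every epididymal fat library of the GT group, outside the liver comparisons, at a mean of 0.9318 FPKM. The 3 GT values, 0.432, 0.828 and 1.54 FPKM, lay above all 3 ND values of 0, 0.225 and 0.120 FPKM, which is why the gene is listed here. The HFD values of 0.176, 0.350 and 0.541 FPKM overlapped both groups. Hepatocyte markers (7 genes, 2 at most reaching 1 FPKM in a library) summed to 1.12 to 7.64 FPKM in GT fat, 3.08 to 5.25 in HFD fat and 2.87 to 16.9 in ND fat. The ND library at 0, ND 1, was unlike ND 2 and ND 3: its adipocyte markers (6 genes) summed to 1283 FPKM, against 7930 and 6803. The difference in Cyp2c70 was not tested.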

How the results depend on the processing

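Over all 8 tested Cyp2c genes and 3 comparisons, 413 of the recomputed changes kept their side of the threshold and their direction where called, 32 lost a call and 5 gained one, and 0 called changes turned round. Most of these changes were never called and had no call to lose. Between HFD and ND the call was lost in 1 of 19 alternatives for Cyp2c38, 9 for Cyp2c54 and 8 for Cyp2c70. Between GT and HFD it was lost in 14 of 19 for Cyp2c54. Between HFD and ND, 3 Cyp2c genes passed, against 1 with no filter and 0 without HFD 2, HFD 3 and GT 3, a setting that leaves HFD with 1 library assumed to vary like the other groups. Leaving out 1 library gave 1 to 4, with 1, Cyp2c38, without HFD 2, ND 1 or ND 3. Over all genes the count was 1980, with 460 (without HFD 2) to 3367 (without GT 3) when 1 library was left out, and 284 without those 3 libraries. Between GT and HFD, 1 Cyp2c gene passed, against 0 with no filter, with equal totals, with the compared diets alone, without HFD 2 and GT 3, and without HFD 2, HFD 3 and GT 3. Leaving out 1 library gave 0 to 1: Cyp2c54 passed without HFD 1, and Cyp2c38 without ND 1 (limma adjusted p = 0.0422). Over all genes the count was 572, against 262 with no filter, 208 with equal totals, 173 with the compared diets alone, 242 without HFD 2 and GT 3, 0 without all 3, and 43 (without HFD 2) to 1240 (without GT 3) with 1 library left out. Between GT and ND, 0 Cyp2c genes passed in every alternative, and over all genes the count was 277, against 143 with no filter, 142 with equal totals, 99 with the compared diets alone, 438 without HFD 2 and GT 3, and 49 (without ND 1) to 428 (without GT 3) with 1 library left out. Beyond fewer samples, or more genes tested with no filter, the cause was not tested.

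No pairing of libraries by replicate number was seen, which does not exclude one. Deviations from the diet means correlated from -0.30 to 0.42 in 9 same-numbered pairs, with 4 over 0.1. In 18 pairs of unlike number they correlated from -0.40 to 0.40, with 7 over 0.1. Of 9 libraries, 4 correlated best with their own number. With the replicate number as a block, 2 Cyp2c genes passed between HFD and ND (Cyp2c38 and Cyp2c54), 0 between GT and HFD and 0 between GT and ND, and the counts over all genes were 306 between GT and HFD and 141 between GT and ND.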

Other observations

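Cyp2c69, a gene next to Cyp2c40 and picked out after its values were seen, had 0.0418, 0.145 and 0.0897 FPKM in GT livers, 0.0769, 0.226 and 0.158 in HFD livers, and 1.07, 0.807 and 0.734 in ND livers. Every GT and HFD value lay below every ND value. The gene was under the filter and was not tested, and it shared more 50-base windows with Cyp2c40 than any other gene did. Its coding sequence was 97.69% identical to that of Cyp2c67 and 96.54% to that of Cyp2c68. Those 2 genes averaged 179 and 86.3 FPKM in ND livers, so the low values of Cyp2c69 are uncertain.

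Among the other drug-metabolizing P450 genes, Cyp2b9, a gene known to be higher in female than in male mouse liver, averaged 95.3 ± 41.4 FPKM in HFD and 2.13 ± 1.99 in ND (SD, n = 3 each), a change of 5.01 ± 0.62 (limma adjusted p = 0.00203). With the extract it averaged 7.42 ± 7.34 FPKM in GT, against 95.3 ± 41.4 in HFD, a change of -3.75 ± 0.62 (limma adjusted p = 0.0153). The second call was lost without HFD 2 and GT 3 (-3.21, limma adjusted p = 0.138). Without HFD 2, HFD 3 and GT 3, which leaves 1 HFD library, the change was 4.22 between HFD and ND and -2.53 between GT and HFD. Cyp2a4, a steroid hydroxylase, rose by 3.40 ± 0.63 between HFD and ND (limma adjusted p = 0.0104) and had -2.59 ± 0.63 between GT and HFD without passing (limma adjusted p = 0.0502). Its rise on the high-fat diet was lost without HFD 2 and GT 3 (3.13, limma adjusted p = 0.0776). Cyp2a5 and Cyp2a12 also rose between HFD and ND, by 2.64 ± 0.54 (limma adjusted p = 0.0112) and 0.71 ± 0.14 (limma adjusted p = 0.00821). Neither passed between GT and HFD, at 0.46 ± 0.54 (limma adjusted p = 0.656) and -0.11 ± 0.14 (limma adjusted p = 0.662). Both were above ND in GT (limma adjusted p = 0.0179 and 0.0471).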
